A study of Mus musculus with 26 samples.

Results

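Simple keratins and desmosome genes were followed in mouse embryonic stem cells (mESCs) that lack Prdm14 or its binding partner Mtgr1. The 9 genes were taken by name from the 24015 genes of the expression tables: 4 keratins (Krt7, Krt8, Krt18 and Krt19) and 5 desmosome genes (Dsp, Dsg2, Dsc2, Pkp2 and Jup). All 9 passed the filter on low values that left 13477 genes to test.

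Keratins are the intermediate filament proteins of epithelial cells. A filament is built from pairs of a type II chain (here Krt7 and Krt8) and a type I chain (here Krt18 and Krt19), and Krt8 with Krt18 is the pair that simple, single-layered epithelia make first in the embryo, in the trophectoderm and later in the endoderm. Desmosomes are the cell-cell junctions to which these filaments are tied. Their cadherins (desmogleins such as Dsg2 and desmocollins such as Dsc2) span the gap between cells, plakoglobin (Jup) and plakophilins (such as Pkp2) bind the cadherin tails inside the cell, and desmoplakin (Dsp) links this plaque to the keratin filament.

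The mRNA of 15 cultures of the Stella:GFP reporter line was sequenced. Wild-type (wt) cells were sampled in 2i+LIF (2 libraries), a serum-free medium with inhibitors of MEK and of GSK3β plus leukemia inhibitory factor, and after 5 days without feeder cells in serum+LIF (1 library). All other lines had also spent 5 days in serum+LIF. Prdm14-/- cells (clones G6 and F10) and Mtgr1-/- cells (clones A3, C1 and C3) are CRISPR-Cas9 clones, each grown from a single cell. FH-Mtgr1 lines (3 libraries) are the same Mtgr1-/- clones given back a FLAG- and HA-tagged Mtgr1 cDNA. FH-Prdm14 lines (2 libraries) are the Prdm14-/- clones with a tagged Prdm14 cDNA, and E294K lines (2 libraries) are the same clones with a Prdm14 cDNA that carries the E294K substitution in the surface that contacts Mtgr1. Each clone has 1 library per state, so that clone and culture cannot be told apart.

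The libraries held between 10668572 and 21218414 reads on genes. Prdm14 mRNA was at 79.8 to 116 RPKM (reads scaled to gene length and to the reads of the library) in the FH-Prdm14 and at 89.9 and 105 RPKM in the E294K lines against 2.77 RPKM in wt cells in serum+LIF. It was at 1.96 and 3.60 RPKM in the Prdm14-/- clones, so that the mRNA level does not show the knockout. Cbfa2t2, which encodes the Mtgr1 protein, was at 18.0 to 19.9 RPKM in Mtgr1-/- cells and at 25.5 to 28.0 RPKM with FH-Mtgr1. The pair of 2i+LIF libraries differed most within a condition (chi-square per degree of freedom 64.5, against 3.26 for the E294K pair). Of the Mtgr1-/- libraries, clone C3 had the highest RPKM of all 9 genes. The stem cell marker Pou5f1 was expressed in all conditions, with means from 352 RPKM in Prdm14-/- to 867 RPKM in 2i+LIF.

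Positions are those of the mm9 assembly (NCBIM37). Krt8 (chr15:101827142-101834773, minus strand) and Krt18 (chr15:101858647-101862457, plus strand) are neighbours that point away from each other, with 23873 bases and no other gene of the tables between them. Krt7 (chr15:101241474-101260744, plus strand) lies on the same chromosome, 566397 bases from Krt8. Krt19 (chr11:100002124-100009979, minus strand) and Jup (chr11:100230272-100259077, minus strand) are 220292 bases apart. Dsc2 (chr18:20189134-20218055, minus strand) and Dsg2 (chr18:20716575-20763022, plus strand) also share a chromosome, at a distance of 498519 bases. Dsp (chr13:38243197-38290446, plus strand) and Pkp2 (chr16:16213411-16272805, plus strand) stand alone. All values are for whole genes, summed over their exons. The annotation lists an antisense transcript that overlaps exons of Dsp and another that overlaps exons of Dsg2, neither of which is a gene of the tables, and the libraries were not made with a strand mark, so that reads of the strands were not separated there. RefSeq lists a Krt8 pseudogene, which is outside the tables as well, and reads shared with it were not told apart.

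The embryonic keratin pair was the most abundant of the 9 genes in both knockouts. Krt8, the type II chain, was at 792, 757 and 1303 RPKM in Mtgr1-/- clones A3, C1 and C3, and at 52.2, 57.0 and 62.0 RPKM in FH-Mtgr1 lines of the same clones. In the Prdm14-/- clones G6 and F10 it was at 549 and 396 RPKM, and in their FH-Prdm14 lines at 22.9 and 18.0 RPKM. The single wt library in serum+LIF had 22.9 RPKM. Every knockout library thus lay above every rescue and wt library, by a factor of 13.3 to 21.0 within an Mtgr1 clone and of 24.0 and 22.0 within a Prdm14 clone. The log2 fold change was 4.0 ± 0.40 (SE) for Mtgr1-/- against FH-Mtgr1 (limma, Benjamini-Hochberg adjusted p = 1.1e-05) and 4.49 ± 0.49 (SE) for Prdm14-/- against FH-Prdm14 (limma, Benjamini-Hochberg adjusted p = 7.0e-05). These fold changes and all that follow are of RPKM + 0.5, and the test took the spread from all 15 libraries.

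Krt18, the type I partner of Krt8, was at 624, 563 and 967 RPKM in Mtgr1-/- clones A3, C1 and C3 and at 159, 176 and 231 RPKM in FH-Mtgr1 lines. In the Prdm14-/- clones it was at 575 and 466 RPKM and in the FH-Prdm14 lines at 29.9 and 21.7 RPKM, with 52.2 RPKM in wt cells in serum+LIF. The knockouts overlapped in their range, while the rescue lines did not. Krt18 rose by a log2 fold change of 1.91 ± 0.20 (SE; limma, Benjamini-Hochberg adjusted p = 1.9e-05) in the Mtgr1 comparison, knockout against rescue, and by 4.32 ± 0.25 (SE; limma, Benjamini-Hochberg adjusted p = 1.4e-06) in the Prdm14 comparison. Krt18 was also the one gene of the 9 that differed between FH-Mtgr1 lines and wt cells in serum+LIF (log2 fold change 1.82 ± 0.29 SE, limma, Benjamini-Hochberg adjusted p = 0.0176). Of all genes tested, 1.03% were higher in that comparison.

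The promoters of Krt8 and Krt18 are shown because the genes are neighbours that point apart and both stood highest in the knockouts, and those of Krt7 and Dsp because both genes rose in each knockout against its rescue. Each stretch runs from 250 bases before to 50 bases after the start of the RefSeq gene (GRCm38.p6, 300 bases, written 5′ to 3′ on the strand of the gene). Capitals mark matches, on either strand, to GGGCGG (the GC box bound by Sp1), CAGGTG (an E-box bound by Snail and Zeb factors) and TATAAA (the TATA box). Promoter stretches of 5 of the 9 genes were searched (these 4 and Jup). Those of Krt19, Dsg2, Dsc2 and Pkp2 were left out, so nothing is said of their motifs.
Krt8 (chr15:102004293-102004592, minus strand): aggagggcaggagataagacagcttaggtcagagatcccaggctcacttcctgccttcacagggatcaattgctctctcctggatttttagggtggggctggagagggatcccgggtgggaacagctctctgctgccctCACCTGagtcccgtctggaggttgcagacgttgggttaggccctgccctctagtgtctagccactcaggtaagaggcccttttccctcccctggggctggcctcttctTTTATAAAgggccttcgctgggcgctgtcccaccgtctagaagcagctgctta
Krt18 (chr15:102027966-102028265, plus strand): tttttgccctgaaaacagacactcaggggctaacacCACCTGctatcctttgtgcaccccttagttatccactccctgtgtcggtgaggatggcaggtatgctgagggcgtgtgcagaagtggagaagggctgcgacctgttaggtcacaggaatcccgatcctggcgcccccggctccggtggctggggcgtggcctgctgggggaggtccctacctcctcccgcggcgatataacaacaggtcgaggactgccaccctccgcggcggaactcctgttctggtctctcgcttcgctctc
Krt7 (chr15:101412153-101412452, plus strand): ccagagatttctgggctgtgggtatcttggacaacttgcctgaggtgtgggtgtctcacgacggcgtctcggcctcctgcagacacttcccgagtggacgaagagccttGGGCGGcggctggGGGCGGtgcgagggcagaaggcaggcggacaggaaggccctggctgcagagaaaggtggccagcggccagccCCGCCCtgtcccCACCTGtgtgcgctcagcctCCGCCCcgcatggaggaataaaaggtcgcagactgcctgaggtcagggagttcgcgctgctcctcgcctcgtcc
Dsp (chr13:38151044-38151343, plus strand): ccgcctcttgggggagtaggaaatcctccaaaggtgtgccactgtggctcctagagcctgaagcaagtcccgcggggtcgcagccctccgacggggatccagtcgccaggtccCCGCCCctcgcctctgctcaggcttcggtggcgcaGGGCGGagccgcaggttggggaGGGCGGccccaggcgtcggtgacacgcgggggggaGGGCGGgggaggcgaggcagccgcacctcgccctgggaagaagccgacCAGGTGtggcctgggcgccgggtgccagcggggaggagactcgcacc
Each of these 4 stretches held 1 match to CAGGTG, which 20.2% of the 32851 promoter stretches of this length hold, and Jup held none. Krt7 and Dsp had 4 matches each to GGGCGG and Jup had 2, while Krt8 and Krt18 had none, and 35.7% of all stretches hold this motif. The pair of overlapping TATAAA matches of Krt8 at the start site is a single run read on both strands (13.6% of all stretches hold the motif). The letters of the Prdm14 motif (GGTCTCTAA, in 0.256% of all stretches), of an AP-1 site (TGANTCA, in 7.81%) and of a Grainyhead-like site (AACCGGTT, in 0.146%) were not in any of the 5 windows. The matches are descriptions of letters, and binding at them was not analysed here.

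Krt7, the second type II keratin, was less abundant than Krt8 in every knockout library. It was at 89.2, 88.1 and 116 RPKM in Mtgr1-/- clones and at 6.45, 6.06 and 6.64 RPKM in FH-Mtgr1 lines. It was at 87.2 and 67.4 RPKM in the Prdm14-/- clones, at 12.3 and 12.0 RPKM in FH-Prdm14 lines and at 4.65 RPKM in wt cells in serum+LIF. No ranges overlapped between these groups, with the FH-Prdm14 lines above the FH-Mtgr1 lines and the knockouts far above both. Krt7 rose by a log2 fold change of 3.82 ± 0.22 (SE) in Mtgr1-/- against FH-Mtgr1 cells (limma, Benjamini-Hochberg adjusted p = 5.7e-07) and of 2.61 ± 0.26 (SE) in Prdm14-/- against FH-Prdm14 cells (limma, Benjamini-Hochberg adjusted p = 4.7e-05).

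Krt19, the smallest type I keratin, which lacks most of the tail domain of other keratins, was at 157, 155 and 210 RPKM in Mtgr1-/- clones and at 12.4, 13.4 and 10.6 RPKM in FH-Mtgr1 lines. In the Prdm14-/- clones it was at 174 and 158 RPKM, in the FH-Prdm14 lines at 23.5 and 18.1 RPKM and in wt cells in serum+LIF at 11.5 RPKM. The knockouts had overlapping ranges and no knockout library came near a rescue library. The log2 fold change was 3.78 ± 0.18 (SE) for Mtgr1-/- against FH-Mtgr1 (limma, Benjamini-Hochberg adjusted p = 2.0e-07) and 2.98 ± 0.22 (SE) for Prdm14-/- against FH-Prdm14 (limma, Benjamini-Hochberg adjusted p = 6.0e-06). In RNA of whole cultures, more cells that express a gene and more RNA per cell cannot be told apart, for this and every other gene.

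**Figure D1:**
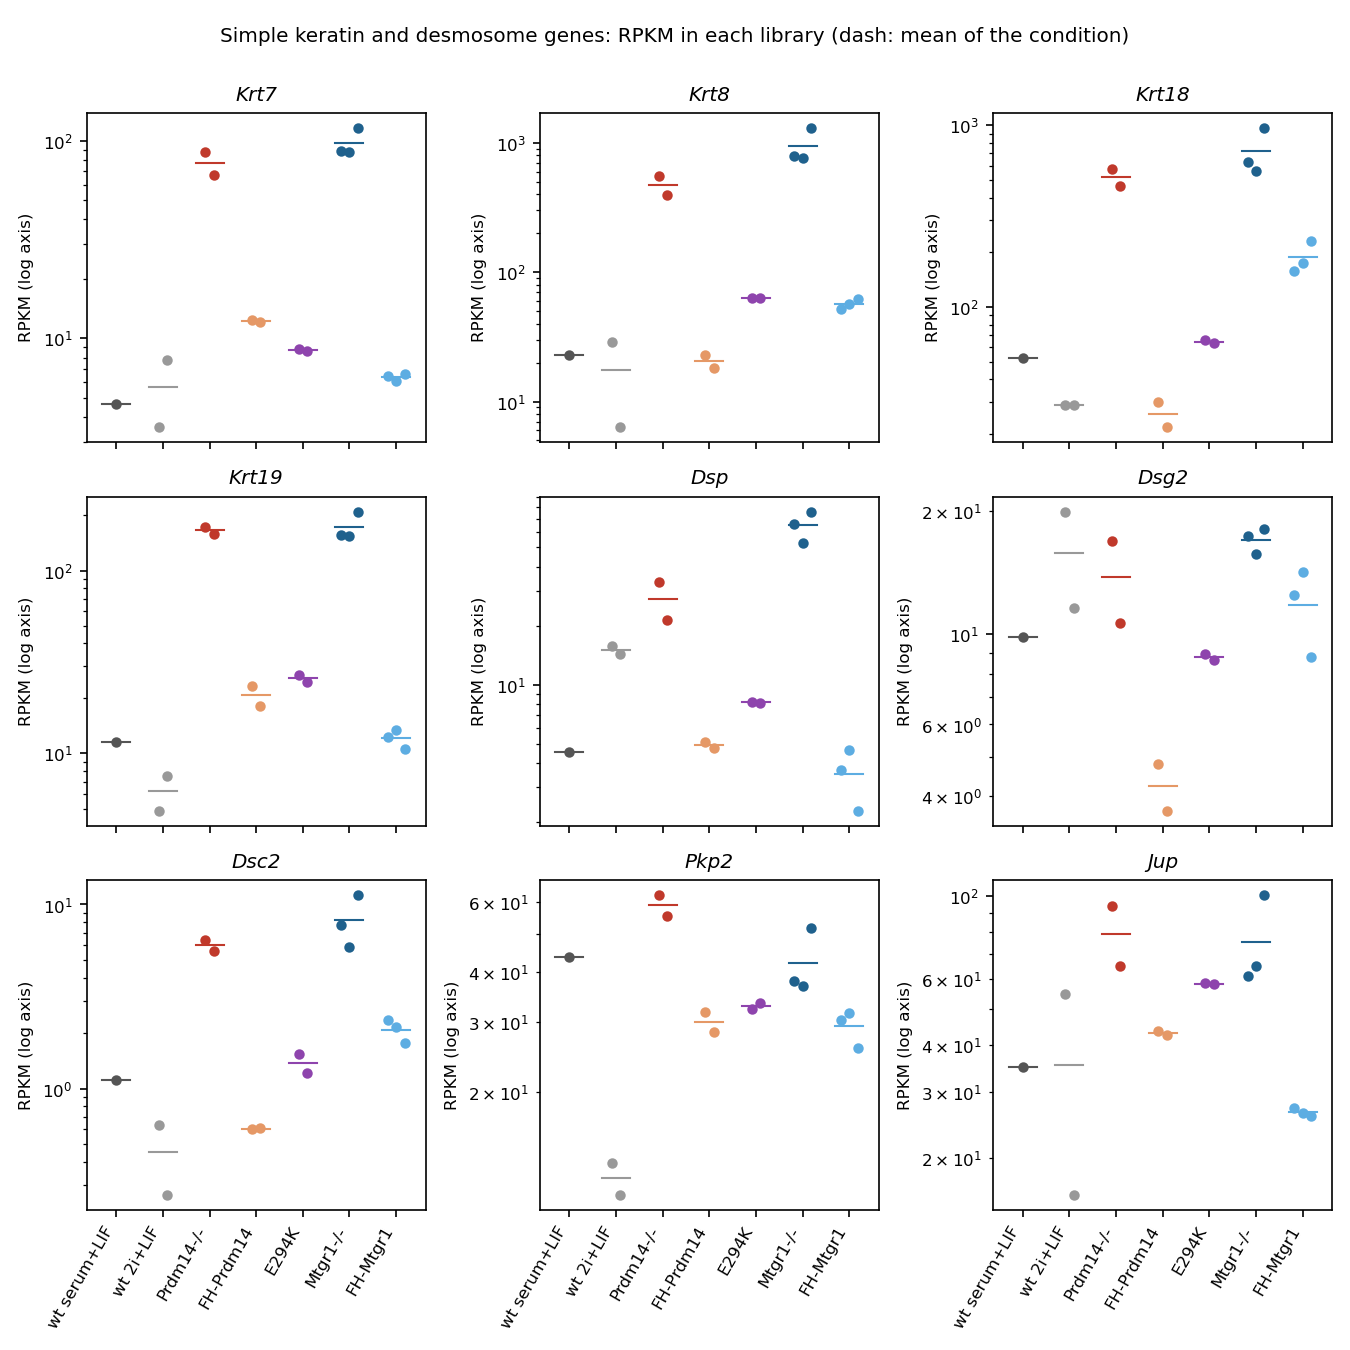
RPKM of the 9 genes (log axes that differ between panels) in each of the 15 libraries, grouped by condition, with 1 point per library and a dash at the mean of the condition. The 4 keratins and Dsp stand highest in the Prdm14-/- and Mtgr1-/- libraries, whereas Dsg2, Pkp2 and Jup span a far narrower range, and the 2i+LIF points for Krt8 (28.8 and 6.32 RPKM) and Jup (54.8 and 15.9 RPKM) lie far apart.

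Of the desmosome genes, Dsp had the largest difference in Mtgr1-/- against FH-Mtgr1 cells. Desmoplakin mRNA was at 65.7, 52.5 and 76.2 RPKM in Mtgr1-/- clones and at 3.67, 4.64 and 2.28 RPKM in FH-Mtgr1 lines. In the Prdm14-/- clones it was at 33.5 and 21.5 RPKM, in the FH-Prdm14 lines at 5.10 and 4.76 RPKM, and in wt cells in serum+LIF at 4.55 RPKM. The knockouts did not overlap, with every Mtgr1-/- library above both Prdm14-/- libraries, and no knockout library came near a rescue library. It rose by a log2 fold change of 4.05 ± 0.22 (SE) in Mtgr1-/- against FH-Mtgr1 cells (limma, Benjamini-Hochberg adjusted p = 5.0e-07), the third-largest of 13477 genes, and of 2.33 ± 0.27 (SE) in Prdm14-/- against FH-Prdm14 cells (limma, Benjamini-Hochberg adjusted p = 0.00012).

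The pair of desmosomal cadherins differed from each other. Dsc2 (desmocollin 2) was the least abundant of the 9 genes, at 7.72, 5.89 and 11.2 RPKM in Mtgr1-/- clones, 2.35, 2.16 and 1.76 RPKM in FH-Mtgr1 lines, 6.42 and 5.61 RPKM in the Prdm14-/- clones, and 0.599 and 0.611 RPKM (34 and 39 reads) in the FH-Prdm14 lines. Dsg2 (desmoglein 2) was at 17.4, 15.7 and 18.1 RPKM in Mtgr1-/- clones, 12.4, 14.2 and 8.80 RPKM in FH-Mtgr1 lines, 16.9 and 10.6 RPKM in the Prdm14-/- clones, and 4.81 and 3.68 RPKM in FH-Prdm14 lines. In wt cells in serum+LIF, Dsc2 was at 1.11 and Dsg2 at 9.85 RPKM. Both cadherins were thus lowest in serum in the FH-Prdm14 lines, but only Dsc2 had levels in both knockouts well above every other condition.

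Dsc2 rose in both comparisons with the rescue lines, by log2 fold changes of 1.72 ± 0.22 (SE; limma, Benjamini-Hochberg adjusted p = 6.6e-05) in Mtgr1-/- and of 2.56 ± 0.27 (SE; limma, Benjamini-Hochberg adjusted p = 6.6e-05) in Prdm14-/- cells. Dsg2 rose in Prdm14-/- against FH-Prdm14 cells, by 1.56 ± 0.28 (SE; limma, Benjamini-Hochberg adjusted p = 0.00173). The log2 fold change of Dsg2 in Mtgr1-/- against FH-Mtgr1 cells, 0.53 ± 0.23 (SE), missed the threshold (limma, Benjamini-Hochberg adjusted p = 0.0684), although the libraries did not overlap. Over 14 alternative fits this value ran from 0.34 to 0.67 (limma, Benjamini-Hochberg adjusted p from 0.040 to 0.252). It passed only with median-of-ratios scaling, with the compared conditions alone and without the FH-Mtgr1 library of clone C1.

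The plaque proteins Jup and Pkp2 were at 11.1 RPKM or more in every library. Jup (plakoglobin, which also takes part in adherens junctions) was at 61.1, 65.1 and 101 RPKM in Mtgr1-/- clones, 27.2, 26.4 and 25.8 RPKM in FH-Mtgr1 lines, 94.0 and 64.9 RPKM in the Prdm14-/- clones and 43.6 and 42.6 RPKM in FH-Prdm14 lines, with 34.9 RPKM in wt cells in serum+LIF. Pkp2 (plakophilin 2) was at 38.1, 37.0 and 51.7 RPKM in Mtgr1-/- clones, 30.4, 31.7 and 25.8 RPKM in FH-Mtgr1 lines, 62.5 and 55.3 RPKM in the Prdm14-/- clones and 31.8 and 28.3 RPKM in FH-Prdm14 lines. Wt cells in serum+LIF had 43.7 RPKM of Pkp2, within the range of the Mtgr1-/- clones. For both genes the knockout libraries lay above those of their own rescue.

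Jup rose in Mtgr1-/- against FH-Mtgr1 cells by a log2 fold change of 1.46 ± 0.34 (SE; limma, Benjamini-Hochberg adjusted p = 0.00327), while its value of 0.85 ± 0.41 (SE) in Prdm14-/- against FH-Prdm14 cells did not pass (limma, Benjamini-Hochberg adjusted p = 0.158). Pkp2 rose in both, by 0.51 ± 0.14 (SE; limma, Benjamini-Hochberg adjusted p = 0.0105) in Mtgr1-/- and by 0.96 ± 0.18 (SE; limma, Benjamini-Hochberg adjusted p = 0.0020) in Prdm14-/- cells.

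Counted together, 8 of the 9 genes rose when Mtgr1-/- was set against FH-Mtgr1 (all but Dsg2), where 26.2% of all genes tested were higher. Their median log2 fold change was 1.91, against -0.01 over all genes tested, and it was 3.80 for the 4 keratins and 1.46 for the 5 desmosome genes. In Prdm14-/- against FH-Prdm14 cells, 8 of the 9 were higher (all but Jup), where 11.4% of all genes were, with a median of 2.56 against -0.09 over all genes tested. None of the 9 was lower in either comparison, where 26.1% and 13.8% of all genes were. Without the Mtgr1-/- library of clone C3, 8 genes were still called in the first.

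**Figure D2:**
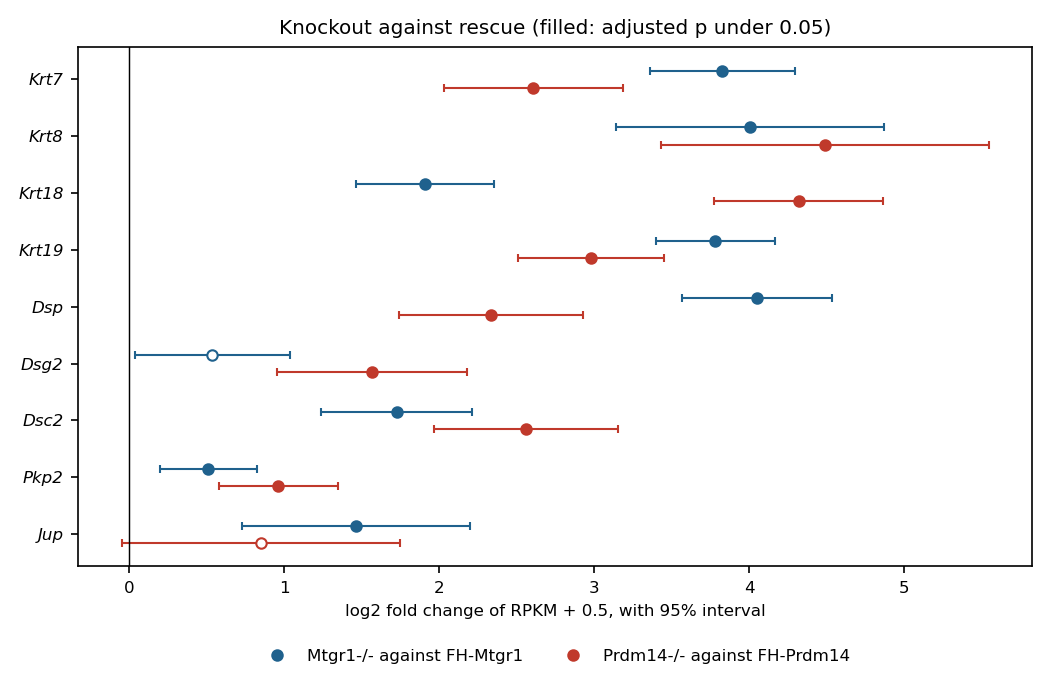
Log2 fold change of RPKM + 0.5 with its 95% interval for the 9 genes in Mtgr1-/- against FH-Mtgr1 (blue) and Prdm14-/- against FH-Prdm14 (red) cells. Filled points have an adjusted p under 0.05 and open points do not; all points lie above 0, and Krt18 (1.91 and 4.32) and Dsp (4.05 and 2.33) part the most.

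Set against the single wt library in serum+LIF, the 4 keratins had the largest differences of the 9 genes, and neither Jup nor Pkp2 passed the test. All 4 keratins, Dsp and Dsc2 were higher in Mtgr1-/- cells (6 of 9, where 14.9% of all genes were higher). Krt8 led with a log2 fold change of 5.30 ± 0.56 (SE; limma, Benjamini-Hochberg adjusted p = 6.7e-05), followed by Krt7 with 4.24 ± 0.31 (SE; limma, Benjamini-Hochberg adjusted p = 1.6e-05). In Prdm14-/- cells these 4 keratins, Dsp and Dsc2 were again the 6 that were higher (where 11.7% of all genes were), led by Krt8 with 4.32 ± 0.60 (SE; limma, Benjamini-Hochberg adjusted p = 0.00117) and Krt7 with 3.91 ± 0.32 (SE; limma, Benjamini-Hochberg adjusted p = 6.4e-05). Pkp2, at 43.7 RPKM in wt cells, differed by -0.07 (Mtgr1-/-) and 0.42 (Prdm14-/-) on the log2 scale, and Jup, at 34.9 RPKM, by 1.07 and 1.15, with every knockout library above the wt library. The wt condition has no replicate, and both comparisons use the same wt library, so that they are not independent of each other.

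The knockouts were compared directly and through their rescues. Dsp was higher in Mtgr1-/- than in Prdm14-/- cells by a log2 fold change of 1.24 ± 0.25 (SE; limma, Benjamini-Hochberg adjusted p = 0.00279), and was the one higher call among the 9 genes where 14.4% of all genes were higher. Pkp2 was lower by -0.49 ± 0.16 (SE; limma, Benjamini-Hochberg adjusted p = 0.0336), where 21.1% of all genes were lower. The keratins did not differ past the threshold, with 95% intervals of the log2 difference from -0.19 to 0.86 for Krt7, from 0.02 to 1.94 for Krt8, from -0.07 to 0.93 for Krt18 and from -0.37 to 0.48 for Krt19. The call for Pkp2 was lost with the parental clone as a block (0.0625) and without either Prdm14-/- library (G6 0.187, F10 0.0674) or the Mtgr1-/- library of clone A3 (0.107) or C1 (0.116), and Krt18 passed with the block (0.0479) and after GC adjustment (0.0374), as Krt8 did after GC adjustment (0.0382) and with voom (0.0438), all of them limma p-values with Benjamini-Hochberg correction.

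The difference between a knockout and its own rescue was then compared between the genes Mtgr1 and Prdm14, in an interaction contrast whose 4 groups share no library. The difference was larger for Mtgr1 in Dsp (1.72 ± 0.35 SE on the log2 scale), Krt7 (1.22 ± 0.34 SE) and Krt19 (0.80 ± 0.28 SE), with limma and Benjamini-Hochberg adjusted p of 0.00362, 0.0178 and 0.0447, where 17.1% of all genes were higher. It was smaller in Krt18 (-2.41 ± 0.32 SE) and Dsg2 (-1.03 ± 0.36 SE), with limma and Benjamini-Hochberg adjusted p of 0.00037 and 0.0480, where 14.3% of all genes were lower. With the parental clone as a block 3 of these 5 calls held (Krt7, Krt18 and Dsp), and Krt19 (0.0869) and Dsg2 (0.0715) did not (limma, Benjamini-Hochberg adjusted p). Leaving out 1 library left between 2 and 5 calls, with Krt18 and Dsp among them each time.

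The rescue lines themselves differed. FH-Prdm14 lines had less Krt18 than FH-Mtgr1 lines, with a log2 fold change of -2.84 ± 0.23 (SE; limma, Benjamini-Hochberg adjusted p = 7.3e-06), and also less Krt8 (-1.46 ± 0.44 SE), Dsg2 (-1.36 ± 0.26 SE) and Dsc2 (-1.22 ± 0.25 SE), with limma and Benjamini-Hochberg adjusted p of 0.0199, 0.00155 and 0.0025. Thus 4 of the 9 genes were lower, where 15.4% of all genes were. Krt7 and Krt19 were higher in FH-Prdm14 lines, by 0.88 ± 0.24 (SE) and 0.75 ± 0.20 (SE), with limma and Benjamini-Hochberg adjusted p of 0.0122 and 0.0100, where 26.2% of all genes were. Without the FH-Prdm14 library of clone G6, 3 of these 6 calls held (Krt18, Dsg2 and Dsc2); without that of F10, Krt7 (0.0636) and Krt8 (0.123) were lost, and without FH-Mtgr1 clone C3 Krt8 (0.0528) was lost (limma, Benjamini-Hochberg adjusted p).

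The E294K lines, which express Prdm14 with the substitution in its Mtgr1-binding surface, were set against the FH-Prdm14 lines and against the knockout. Krt8 was at 63.0 RPKM in both E294K libraries, against 22.9 and 18.0 RPKM in the FH-Prdm14 and 549 and 396 RPKM in the Prdm14-/- libraries. Krt18 was at 65.4 and 63.3 RPKM in the E294K lines of clones F10 and G6, and Dsg2 at 8.95 and 8.63 RPKM. These 3 genes were higher in the E294K than in the FH-Prdm14 lines, by log2 fold changes of 1.61 ± 0.49 (SE), 1.32 ± 0.25 (SE) and 0.98 ± 0.28 (SE), with limma and Benjamini-Hochberg adjusted p of 0.0361, 0.00365 and 0.0296. That is 3 of 9, where 6.35% of all genes were higher. With the parental clone as a block, Krt8 (0.0724) and Dsg2 (0.0524) missed the threshold and Krt18 held, as it did without any 1 of the 4 libraries, where Krt8 and Dsg2 were again lost (limma, Benjamini-Hochberg adjusted p from 0.112 to 0.176 for Krt8 and from 0.0768 to 0.184 for Dsg2).

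The remaining genes in the E294K lines did not pass the test against FH-Prdm14. Krt7 was at 8.83 and 8.64 RPKM (log2 fold change -0.46, 95% interval from -1.03 to 0.12), Krt19 at 26.9 and 24.7 RPKM (0.32, from -0.15 to 0.79) and Dsp at 8.19 and 8.12 RPKM (0.67, from 0.08 to 1.27). Dsc2 was at 1.54 and 1.21 RPKM, Pkp2 at 32.5 and 33.6 RPKM and Jup at 58.5 and 58.2 RPKM. The mean level in the E294K lines lay between those of the FH-Prdm14 and Prdm14-/- lines for 8 of the 9 genes, the exception being Krt7. The share of all genes tested that lie between was not counted, so this number is a description only. Of the 11 other keratins tested, 6 were lower in the E294K than in the FH-Prdm14 lines and none was higher, where 13.2% of all genes were lower, with a median log2 fold change of -1.22. A fit with the compared conditions alone called 7 of the 9 genes, among them Krt7 as lower, where 22.3% of all genes were higher and 31.2% lower.

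Against the Prdm14-/- clones, 7 of the 9 genes were lower in the E294K lines (all but Dsg2 and Jup), where 17.8% of all genes were lower. The keratins led with log2 fold changes of -3.06 ± 0.26 (SE) for Krt7, -3.00 ± 0.25 (SE) for Krt18, -2.88 ± 0.49 (SE) for Krt8 and -2.66 ± 0.22 (SE) for Krt19, and limma and Benjamini-Hochberg adjusted p of 3.9e-05, 3.3e-05, 0.00155 and 2.6e-05. Dsc2 was lower by -1.80 ± 0.27 (SE), Dsp by -1.66 ± 0.27 (SE) and Pkp2 by -0.82 ± 0.18 (SE), with limma and Benjamini-Hochberg adjusted p of 0.000914, 0.00138 and 0.00543. The call for Pkp2 was lost without the Prdm14-/- library of clone G6 (limma, Benjamini-Hochberg adjusted p = 0.054). This comparison shares the E294K libraries with the preceding one.

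**Figure D3:**
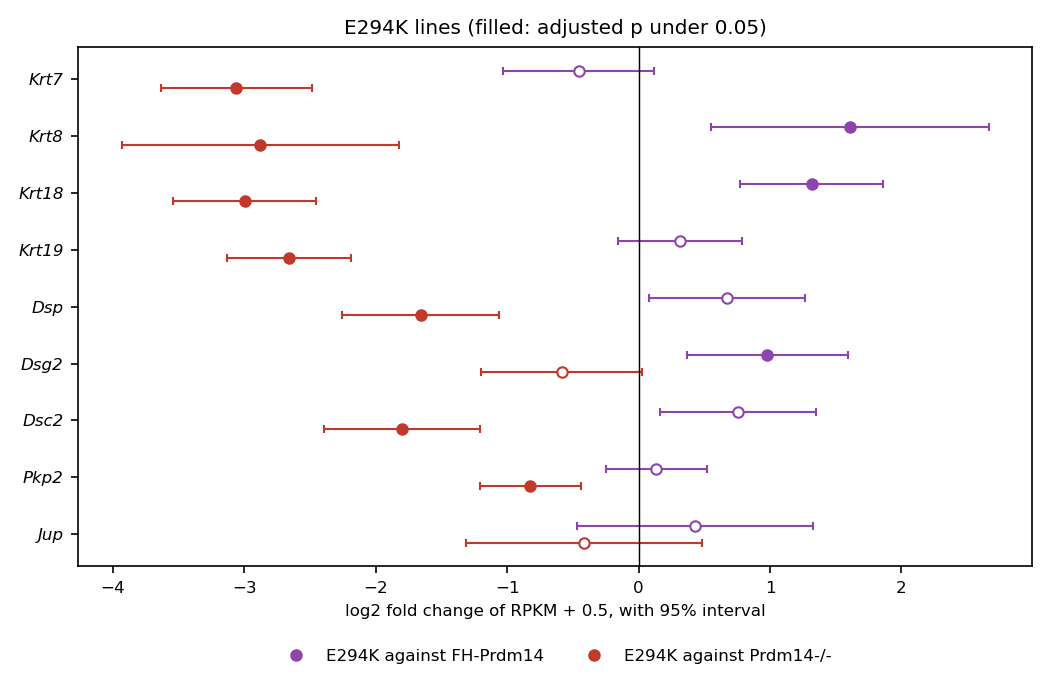
Log2 fold change of RPKM + 0.5 with its 95% interval for the 9 genes in the E294K lines against FH-Prdm14 (purple) and against Prdm14-/- (red) cells, with filled points for an adjusted p under 0.05. The keratins lie near -3 against the knockout (-3.06 for Krt7) and between -0.46 and 1.61 against FH-Prdm14; both comparisons use the same E294K libraries.

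Some of the genes also differed between media. In the 2i+LIF libraries Dsp was at 15.7 and 14.4 RPKM, above the 4.55 RPKM of serum+LIF, a log2 fold change of 1.62 ± 0.34 (SE; limma, Benjamini-Hochberg adjusted p = 0.00573), and it was the one gene of the 9 that was higher, where 9.28% of all genes were. Pkp2 was lower, at 13.3 and 11.1 RPKM against 43.7 RPKM (-1.81 ± 0.22 SE; limma, Benjamini-Hochberg adjusted p = 0.000236), and so was Krt19, at 4.85 and 7.56 RPKM against 11.5 RPKM (-0.87 ± 0.26 SE; limma, Benjamini-Hochberg adjusted p = 0.0338), where 13.6% of all genes were lower. Krt8 was at 28.8 and 6.32 RPKM and Jup at 54.8 and 15.9 RPKM in the pair of 2i+LIF libraries, on either side of the serum+LIF values, and neither passed. Krt7 was at 3.55 and 7.78 RPKM, Krt18 at 28.7 RPKM in both, Dsg2 at 19.96 and 11.6 RPKM, and Dsc2 at 0.637 and 0.265 RPKM (30 and 15 reads).

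The calls between media depend on single libraries. Without the first 2i+LIF library 6 genes were called (Krt7, Krt8, Dsp, Dsc2, Pkp2 and Jup) and Krt19 was lost (limma, Benjamini-Hochberg adjusted p = 0.117), and without the second Dsg2 passed (0.0481) and Krt8 and Jup turned to positive values (0.32 and 0.64 on the log2 scale). With the block, Krt19 was lost (0.0716) and Krt18 passed (0.0182), and a fit of these 3 libraries alone called none (3 at an unadjusted p under 0.05), all by limma with Benjamini-Hochberg adjustment.

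Ordered by mean RPKM over the 7 conditions, 7 of the 9 genes were highest in Mtgr1-/- cells and the other two, Pkp2 and Jup, in Prdm14-/- cells. The ranges of the 2 knockouts overlapped for Krt18, Krt19, Dsg2, Dsc2 and Jup, whereas those of Krt7, Krt8, Dsp and Pkp2 did not. For Krt7 the gap was narrow, from 87.2 RPKM in Prdm14-/- to 88.1 RPKM in Mtgr1-/- cells. How many of all genes tested have separate ranges in so few libraries was not counted. For Dsg2 neighbours in the order overlapped from the highest condition, Mtgr1-/-, down to wt cells in serum+LIF, and only the FH-Prdm14 lines stood apart at the low end. The E294K lines (8.63 and 8.95 RPKM) lay below the wt library but on either side of the FH-Mtgr1 library of clone C3 (8.80 RPKM). The lowest mean was in 2i+LIF for Krt8, Krt19, Dsc2 and Pkp2, in FH-Prdm14 lines for Krt18 and Dsg2, in FH-Mtgr1 lines for Dsp and Jup, and in wt serum+LIF cells for Krt7.

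Because keratins pair 1 type II with 1 type I chain, the RPKM of the 2 types were set against each other in each library. The ratio of Krt7 + Krt8 to Krt18 + Krt19 was 1.13, 1.18 and 1.21 in the Mtgr1-/- clones and 0.343, 0.334 and 0.284 in the FH-Mtgr1 lines, with 0.432 in wt cells in serum+LIF. It was 0.850 and 0.743 in Prdm14-/-, 0.660 and 0.755 in FH-Prdm14 and 0.778 and 0.814 in E294K lines. The ratio thus separated the Mtgr1-/- from the FH-Mtgr1 lines, while those of the Prdm14-/- and FH-Prdm14 lines overlapped. Mtgr1-/- and FH-Mtgr1 lines differed by 1.87 on the log2 scale (exact permutation test, two-sided, p = 0.1, the smallest that 3 against 3 libraries can give).

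The pair Krt8 and Krt18 was also set against each other alone. Their ratio was 1.27, 1.34 and 1.35 in the Mtgr1-/- clones A3, C1 and C3 and 0.329, 0.325 and 0.268 in the FH-Mtgr1 lines, 0.956 and 0.850 in Prdm14-/-, 0.767 and 0.829 in FH-Prdm14 and 0.963 and 0.995 in E294K lines. Here the ranges of the Prdm14-/- and FH-Prdm14 lines did not overlap. Wt cells had a ratio of 0.438 with serum, and the 2i+LIF pair had 1.00 and 0.220. Together the 4 keratin genes took from 0.251% to 0.418% of all reads on genes in Mtgr1-/-, 0.217% and 0.169% in Prdm14-/-, from 0.0344% to 0.0461% in FH-Mtgr1 and 0.0135% and 0.0107% in FH-Prdm14 libraries.

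The ratio of desmosomal cadherins (Dsg2 + Dsc2) to plaque genes (Dsp + Pkp2 + Jup) went the other way. It was 0.152, 0.140 and 0.128 in the Mtgr1-/- clones and 0.242, 0.261 and 0.196 in the FH-Mtgr1 lines, a log2 difference of -0.73 (exact permutation test, two-sided, p = 0.1, again the smallest possible). Counted in reads without gene length the difference was -1.33. The single wt library in serum+LIF had a ratio of 0.132, within the range of the Mtgr1-/- clones and below every FH-Mtgr1 line. In the Prdm14-/- clones the ratio was 0.123 and 0.115, above the 0.0672 and 0.0567 of the FH-Prdm14 lines and below the wt library. It thus lay on opposite sides of the rescue in the 2 knockouts, and the rescue lines lay on opposite sides of the wt library.

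**Figure D4:**
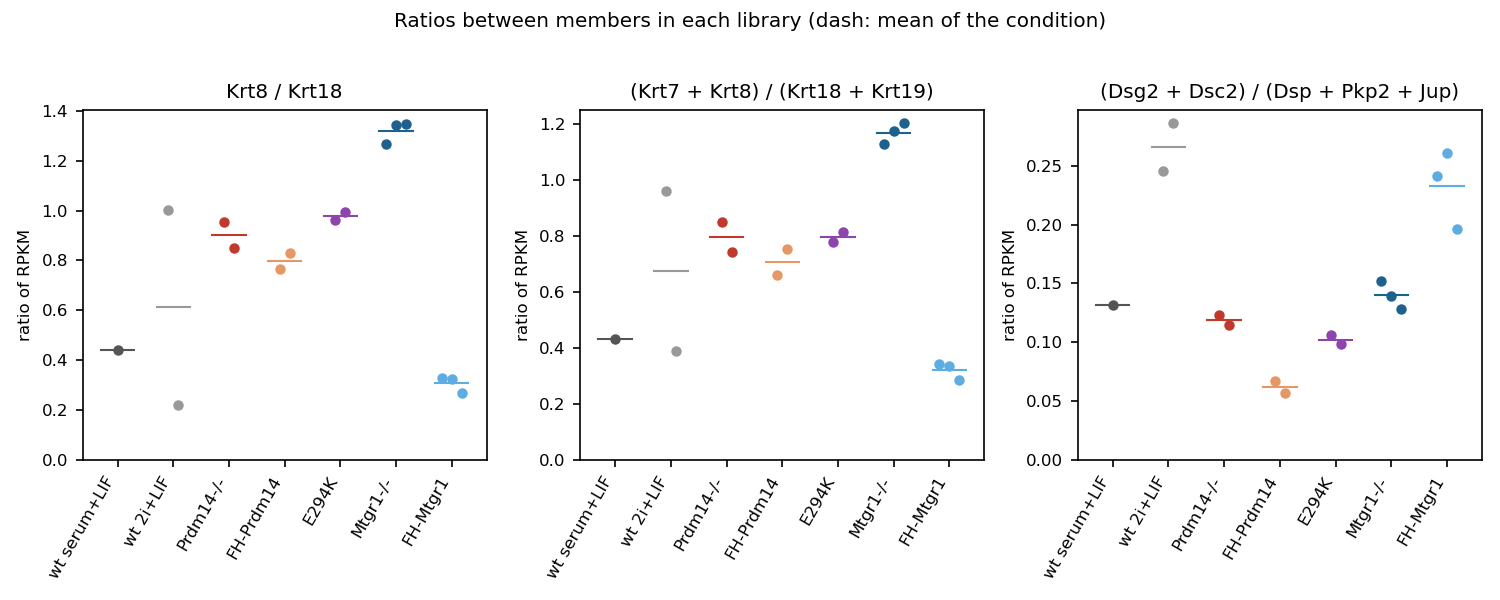
Ratios of RPKM between the genes in each of the 15 libraries (linear axes from 0, 1 point per library, dash at the mean of the condition): Krt8 to Krt18, type II to type I keratins, and desmosomal cadherins to plaque genes. The Mtgr1-/- libraries have the highest keratin ratios (1.13 to 1.21 for type II to type I) and the FH-Mtgr1 libraries the lowest in serum+LIF (0.284 to 0.343).

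Other genes of the same structures were counted from lists. Of 22 genes for keratins of stratified and other epithelia, 10 stayed under 1 RPKM in every library, and the 22 summed to between 17.5 and 23.5 RPKM in Mtgr1-/-, 10.1 and 11.5 RPKM in FH-Mtgr1, 23.2 and 30.1 RPKM in Prdm14-/- and 52.1 and 52.3 RPKM in FH-Prdm14 lines. Of the 11 that were tested, 5 rose in Mtgr1-/- against FH-Mtgr1 cells, among them Krt14 (2.42 ± 0.27 SE on the log2 scale) and Krt17 (1.18 ± 0.22 SE), and 1, Krt79, fell (-1.18 ± 0.17 SE). In Prdm14-/- against FH-Prdm14 cells 5 fell, among them Krt13 (-2.35 ± 0.22 SE), Krt42 and Krt5, and 1 rose. The median log2 fold changes were 0.90 and -0.68. Against wt cells in serum+LIF, whose sum was 13.2 RPKM, 3 rose and 1 fell in Prdm14-/- cells, with a median of 0.88.

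Of 11 other desmosome genes, 8 (the desmogleins and desmocollins of skin and Pkp1) stayed under 1 RPKM in every library and 3 were tested. Perp, a membrane protein of desmosomes, Pkp3 and Pkp4 rose in the Mtgr1 comparison, with log2 fold changes of 2.18 ± 0.18 (SE), 1.69 ± 0.19 (SE) and 1.15 ± 0.17 (SE), and Perp (1.38 ± 0.22 SE) and Pkp3 (0.99 ± 0.24 SE) rose in Prdm14-/- against FH-Prdm14 cells. Among 10 plakins and further intermediate filament genes, 6 rose and 2 fell in the Mtgr1 comparison, with Plec, the plakin that crosslinks filaments, at 2.24 ± 0.30 (SE) and Lmna at 1.64 ± 0.29 (SE). In the Prdm14 comparison 2 rose, among them Nes (2.37 ± 0.30 SE), and 1 fell, Vim (-1.80 ± 0.38 SE), the filament protein of mesenchymal cells. The median log2 fold changes of this list were 0.84 and 0.12.

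Genes of the other epithelial junctions were counted in the same way. Of 11 adherens junction genes, 8 rose in Mtgr1-/- against FH-Mtgr1 and 6 in Prdm14-/- against FH-Prdm14 cells, and none fell, with Cdh2 (2.49 ± 0.23 SE) and Vcl (1.41 ± 0.17 SE) leading the first and Pvrl2 (1.64 ± 0.22 SE) the second. E-cadherin (Cdh1) rose by 0.91 ± 0.26 (SE) in the Prdm14 comparison, with means of 173 RPKM in Prdm14-/-, 91.6 RPKM in FH-Prdm14 and 153 RPKM in wt cells in serum+LIF. Against that wt library 4 of the 11 rose in Mtgr1-/- cells (14.9% of all genes rose) and 3 in Prdm14-/- cells (11.7% of all genes rose), and none fell. Of 13 tight junction genes, 7 rose and 2 fell in the Mtgr1 comparison, where Marveld2 (1.61 ± 0.25 SE) led, and 9 rose in the Prdm14 comparison, led by the claudins Cldn3 (3.25 ± 0.38 SE), Cldn7 (2.03 ± 0.21 SE) and Cldn6 (1.99 ± 0.22 SE). Of 6 hemidesmosome genes tested, which anchor keratins to the basement membrane, 3 rose in the Mtgr1 comparison and 1, Col17a1, fell (-1.45 ± 0.16 SE), while 2 rose and 1 fell in the Prdm14 comparison.

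Transcription factors of epithelia were counted next. Of 13 tested, 9 rose and 1 fell in Mtgr1-/- against FH-Mtgr1 cells, among them the Grainyhead-like factor Grhl3 (1.31 ± 0.17 SE) and Gata3 (1.10 ± 0.29 SE), together with the splicing regulator Esrp2 (2.06 ± 0.27 SE). In Prdm14-/- against FH-Prdm14 cells 5 rose, among them Gata3 (1.82 ± 0.35 SE) and Grhl2 (1.77 ± 0.22 SE), and 5 fell, Klf4 (-2.72 ± 0.38 SE) the most and Grhl3 (-0.83 ± 0.20 SE) among them. Mean Grhl3 was 7.10 RPKM in Mtgr1-/-, 2.59 RPKM in FH-Mtgr1 and 7.57 RPKM in wt cells in serum+LIF. Against that wt library 3 of the 13 rose and 1 fell in Mtgr1-/- cells (14.9% of all genes rose). In Prdm14-/- cells 2 rose and 1 fell (11.7% of all genes rose). Krt14 and Grhl3 are in the surface ectoderm list below as well, and Gata3 in the trophectoderm list. The calls for all listed genes are by limma with Benjamini-Hochberg adjustment over all 13477 genes, of which 26.2% rose and 26.1% fell in the Mtgr1 comparison and 11.4% rose and 13.8% fell in the Prdm14 comparison.

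Simple keratins also mark cell types that an mESC culture could hold, so marker lists were read beside them, and their part in the levels of the 9 genes was not tested. Of 8 trophectoderm markers tested, 6 rose in Mtgr1-/- against FH-Mtgr1 cells, and the list of 10 summed to between 116 and 119 RPKM against 32.3 to 50.2 RPKM. Plac1 (4.0 ± 0.40 SE on the log2 scale) and Hand1 (3.63 ± 0.38 SE) led, while the defining factor Cdx2 had a mean of 0.712 RPKM and Elf5 stayed under 1 RPKM in every library. In Prdm14-/- against FH-Prdm14 cells 3 rose, with sums of 66.8 and 78.1 against 62.0 and 68.9 RPKM.

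Of 8 primitive and parietal endoderm markers tested, 1 rose and 3 fell in Mtgr1-/- against FH-Mtgr1 cells (Col4a1 at 1.35 ± 0.19 SE, Gata4 at -1.75 ± 0.32 SE and Gata6 at -1.59 ± 0.34 SE). In Prdm14-/- against FH-Prdm14 cells 4 rose, among them Dab2 (2.00 ± 0.23 SE) and Gata4 (1.35 ± 0.39 SE). The 11 listed genes summed to 111 to 142 RPKM in Mtgr1-/-, 93.6 to 127 RPKM in FH-Mtgr1, 139 and 157 RPKM in Prdm14-/- and 94.1 and 107 RPKM in FH-Prdm14 lines. Of 6 visceral endoderm markers, Afp, Ttr, Apoa1 and Apob stayed under 1 RPKM everywhere, and neither of the 2 tested passed in either comparison.

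Of 5 surface ectoderm markers tested, 3 rose in the Mtgr1 comparison and 2 fell in the Prdm14 comparison, and the 7 listed genes summed to at most 24.6 RPKM in any library, with Trp63 and Tfap2b under 1 RPKM throughout. Of 4 fibroblast markers tested, 2 rose and 2 fell in the Mtgr1 comparison and 1 rose in the Prdm14 comparison. Among the 10 listed, which would show feeder cells, Col3a1, Dcn, Lum, Postn and Prrx1 stayed under 1 RPKM in every library. Their sums were 14.2 to 29.5 RPKM in Mtgr1-/-, 23.0 to 30.3 RPKM in FH-Mtgr1, 17.1 and 22.8 RPKM in Prdm14-/- and 14.1 and 16.2 RPKM in FH-Prdm14 lines. Of 8 stem cell markers, 3 fell in the Mtgr1 comparison, Dppa5a the most (-1.79 ± 0.22 SE), and 6 in the Prdm14 comparison, Zfp42 the most (-1.88 ± 0.40 SE), and none rose.

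The genes with the most similar pattern were found by the Pearson r of log2(RPKM + 0.5) over the 15 libraries, with the mean of the standardised keratins or desmosome genes. The libraries fall into knockouts and others, which the r reflects, and genes of one library share its depth, so the r is a description. Among the nearest to the keratins were Anxa3 (r = 0.983), Bmp1 (0.982), Ehd2 (0.980) and Tead3 (0.979). Nearest to the desmosome genes were Cachd1 (0.982), Ttyh3 (0.970), Dusp9 (0.966), Tead3 (0.966) and Zdhhc9 (0.964). Of the desmosome genes themselves, Dsc2 followed the keratins most closely (0.964) and Dsg2 least (0.476).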

How the data were processed

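The 15 RNA-seq libraries were used, and the 11 ChIP-seq samples of the series were left out. The authors selected mRNA by oligo-dT, mapped it to mm9 (Tophat), assigned reads to RefSeq gene models (HTSeq) and deposited RPKM for each gene with the length they used. Libraries were sequenced on 2 kinds of instrument, and which library ran on which is not given in the sources used here. Whole reads were recovered from RPKM and length for 100.0% of values (within 0.001 of a read).

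Values were taken as log2(RPKM + 0.5), which understates changes of low genes. The 13477 of 24015 genes that reached 1 RPKM in 2 or more libraries were tested. Using limma 3.58.1 (R 4.3.3), each condition received its own mean in one fit of the 15 libraries, with moderated, trended variances and two-sided tests, with Benjamini-Hochberg adjustment over all genes tested and a threshold of 0.05. Groups came from the labels. Per the study's methods the RNA came from independent biological replicates of the lines, here different clones for the knockouts and rescues, and p-values measure the spread between these libraries. The genes, lists and tests were chosen with earlier results of these data known. The genes named from a further list are at most 3 past the threshold with the largest change, and the 5 most alike by r, apart from items not reported here. Clones pair the knockouts with their rescues, since they are the same cell line. The correlation of paired deviations from the condition means was 0.063, -0.18 and 0.028 for A3, C1 and C3, 0.299 for Prdm14-/- with FH-Prdm14 and 0.080 for E294K with FH-Prdm14. Alternatives were pseudocounts of 0.1 and 1, no filter, median-of-ratios scaling, voom on the recovered reads, GC adjustment, clone as a block, the compared conditions alone, and each library left out. The fits were tested on simulated data. Positions came from NCBIM37 and promoters from RefSeq (GRCm38.p6). Python 3.11.15 with pandas 2.3.3, numpy 2.4.6 and scipy 1.17.1 served for the rest.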

Additional observations from a re-analysis of the deposited data

Results flagged for a closer look

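The difference between a knockout and its own rescue was itself different for Mtgr1 and Prdm14 in 5 of the 9 genes (interaction contrast in limma, Benjamini-Hochberg adjusted p under 0.05), where 17.1% of all genes were higher and 14.3% lower. Krt19 (0.0869) and Dsg2 (0.0715) lost their calls with the clone as a block. Both also lost them with no filter on low values (0.0635 and 0.0750) and without several single libraries. Krt19 was lost with median-of-ratios scaling (0.0716) as well, and Dsg2 with a pseudocount of 1 (0.0540). Krt7 lost its call without the FH-Prdm14 library of G6 (0.0609) or F10 (0.0544) or the Prdm14-/- library of F10 (0.0771). All of these are adjusted p by limma with Benjamini-Hochberg correction. The difference, Mtgr1 minus Prdm14 on the log2 scale, was -2.41 for Krt18 and 1.72 for Dsp. It was 1.22 for Krt7, 0.80 for Krt19 and -1.03 for Dsg2. The knockout levels of Krt18 overlapped (563 to 967 RPKM in Mtgr1-/-, 466 and 575 RPKM in Prdm14-/-), and its rescue levels were 159 to 231 RPKM in FH-Mtgr1 against 21.7 and 29.9 RPKM in FH-Prdm14 lines. For Dsp the rescue levels were 2.28 to 4.64 RPKM and 4.76 and 5.10 RPKM, and the knockout levels 52.5 to 76.2 RPKM and 21.5 and 33.5 RPKM. Overexpressed Prdm14 in the FH-Prdm14 lines and the loss of Prdm14 in the knockout both enter the Prdm14 difference, and their parts cannot be told apart in this contrast. The level in the FH-Mtgr1 lines likewise enters the Mtgr1 difference. For Krt18 the single wt library in serum+LIF had 52.2 RPKM, below every FH-Mtgr1 library and above both FH-Prdm14 libraries.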

How the results depend on the processing

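Of the values recomputed for single genes, 1122 kept their direction and side of the threshold, 58 lost a call, 25 gained one and 19 turned sign, all of values that were not past the threshold. In Mtgr1-/- against FH-Mtgr1 cells the alternatives gave 8 to 9 calls. Against FH-Prdm14, the E294K lines had 3 called genes, but 7 with the compared conditions alone, 1 under the replicate block by clone, and 1 without any 1 library. Mtgr1-/- against Prdm14-/- cells had 2, but 1 with median-of-ratios scaling or the compared conditions alone, 4 after GC adjustment, and 1 to 2 without 1 library. Between media the 3 calls became 4 to 6 without 1 library and 0 with the compared conditions alone (limma, 3 at an unadjusted p under 0.05). For FH-Mtgr1 against wt cells the 1 call became 0 with the compared conditions alone (limma, 5 at an unadjusted p under 0.05). FH-Prdm14 against FH-Mtgr1 lines had 6 calls, and 3 to 6 without 1 library. The interaction contrast had 5 calls, and 3 with no filter on low values, 3 with the replicate block and 2 to 5 without 1 library. The block changed 8 of 99 calls for single genes, all given beside their results, and no other call. The cause of these changes was not tested.

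Pkp2 in Mtgr1-/- against wt cells went to 0.083 with median-of-ratios scaling, and lay between -0.22 and 0.020 without 1 Mtgr1-/- library. Pkp2 in FH-Prdm14 against FH-Mtgr1 lines went to -0.077 with that scaling, and lay between -0.047 and 0.12 without 1 library. Jup went to 0.035 (E294K against Prdm14-/-) and 0.17 (Mtgr1-/- against Prdm14-/-) after GC adjustment, and the latter lay between -0.35 and 0.18 without 1 library. Krt19 lay between -0.089 and 0.13 in Mtgr1-/- against Prdm14-/- cells without 1 library, and in FH-Mtgr1 against wt cells went to -0.041 after GC adjustment and lay between -0.0096 and 0.15 without 1 library. In 2i+LIF against serum+LIF, Krt7 went to -0.0095 after GC adjustment and lay between -0.35 and 0.69 without 1 library, Krt8 between -1.78 and 0.32, and Jup between -1.11 and 0.64. Median-of-ratios scaling moved the median of all genes by over 0.1 in 4 comparisons, for example from -0.11 to 0.02 in Mtgr1-/- against wt cells. Depth limited Dsc2 most, with 15 to 39 reads in the 2i+LIF and FH-Prdm14 libraries. The wt serum+LIF condition has 1 library.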
